A study of Mus musculus with 12 samples.

Results

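The 10 clock genes described here are Bhlhe40, Bhlhe41, Nr1d1, Nr1d2, Per1, Per2, Per3, Cry1, Clock and Dbp, out of 19938 genes that had a probe with a single gene name on the array. The set was chosen by gene function and by measured values: Bhlhe41 and Nr1d1 were selected on their log2 difference between cells with CHIR99021 and XAV939 together and untreated cells in an earlier look at these data, and the other 8 are clock genes set beside them. Each had 1 such probe, so no choice between probes was needed. The levels and differences of these 2 genes are therefore a description with no test, their presence among called genes is stated with nothing read from it, and the limma results are given for the other 8. These 8 were also listed with earlier results of these data known, so counts among them describe the set and do not test it.

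The cells were EpiSCs, mouse epiblast stem cells with the genetic background 129, which are pluripotent and resemble the epiblast of the implanted embryo; a second label calls them embryonic stem cells. All cells were starved without serum for 12 h, although the growth medium is recorded with 10% serum. The 12 arrays fell into 4 groups of 3: untreated cells, cells with 3 µM CHIR99021 for 2 h, cells with 2 µM XAV939, and cells with both at these doses. CHIR99021 inhibits the kinase GSK3 and so stabilises beta-catenin, and XAV939 inhibits tankyrase, which stabilises Axin and lowers beta-catenin. The time with XAV939 is recorded as 2 h for the samples and as 4 h for the series. Whether replicates were grown as separate cultures is not stated, so p-values reflect only how far these samples spread, perhaps for technical reasons. The hour of day at which cells were treated or collected is not given in the sources used here.

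The mammalian clock is a loop of transcription and repression. CLOCK pairs with the product of Arntl and activates genes through E-boxes, among them the Per and Cry genes, whose proteins return to block that pair. Bhlhe40 and Bhlhe41 encode basic helix-loop-helix repressors that bind the same E-boxes, Nr1d1 and Nr1d2 encode the nuclear receptors REV-ERB alpha and beta, which repress Arntl, and Dbp encodes an activator that acts through D-boxes on output genes. GSK3 phosphorylates several clock proteins, the product of Nr1d1 among them. Pluripotent cells in culture are known for clock gene expression without a sustained rhythm, which appears on differentiation.

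Promoter windows of 300 bases, from 250 before to 50 after an annotated start, were available for 8 of the 10 genes from RefSeq (GRCm38.p6), all except Bhlhe40 and Per2, 11 windows in all. The E-box CACGTG, searched on both strands, was found in the windows of Bhlhe41, Per1 and Cry1, in 3 of the 11 windows, and in 7.15% of all 32851 windows in the table. These 3 windows are shown because they hold the sequence through which the repressors and activators of the loop act, together with the window of Nr1d1, which holds none. The E-box is in capitals.
Bhlhe41, chr6:145865371-145865670, minus strand: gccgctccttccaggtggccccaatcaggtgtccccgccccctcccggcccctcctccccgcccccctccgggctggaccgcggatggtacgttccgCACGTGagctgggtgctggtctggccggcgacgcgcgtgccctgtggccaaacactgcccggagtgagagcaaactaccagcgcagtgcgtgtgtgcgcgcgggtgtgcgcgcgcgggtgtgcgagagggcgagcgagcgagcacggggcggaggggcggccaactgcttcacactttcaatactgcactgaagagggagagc
Per1, chr11:69098699-69098998, plus strand: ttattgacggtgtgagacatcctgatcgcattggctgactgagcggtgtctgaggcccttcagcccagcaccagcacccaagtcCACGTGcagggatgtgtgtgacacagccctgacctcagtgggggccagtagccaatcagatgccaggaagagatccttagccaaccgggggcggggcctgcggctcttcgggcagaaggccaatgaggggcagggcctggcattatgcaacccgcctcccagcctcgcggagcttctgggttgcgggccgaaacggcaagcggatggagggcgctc
Cry1, chr10:85185005-85185304, minus strand: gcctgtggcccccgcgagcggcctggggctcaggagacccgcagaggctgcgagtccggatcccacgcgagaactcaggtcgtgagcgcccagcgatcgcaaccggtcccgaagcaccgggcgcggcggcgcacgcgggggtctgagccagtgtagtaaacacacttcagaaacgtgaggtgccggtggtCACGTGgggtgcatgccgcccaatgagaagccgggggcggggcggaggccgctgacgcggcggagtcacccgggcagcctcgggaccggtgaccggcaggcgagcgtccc
Nr1d1, chr11:98775328-98775627, minus strand: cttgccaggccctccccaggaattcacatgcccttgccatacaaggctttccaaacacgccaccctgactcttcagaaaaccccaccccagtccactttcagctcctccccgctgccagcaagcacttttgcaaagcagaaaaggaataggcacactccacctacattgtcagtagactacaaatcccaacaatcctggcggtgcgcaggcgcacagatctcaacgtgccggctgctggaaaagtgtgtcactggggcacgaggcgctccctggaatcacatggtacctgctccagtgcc

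Counted from the start, the E-box began at -153 in the Bhlhe41 window, at -166 in the first Per1 window and at -60 in the Cry1 window. The REV-ERB or ROR site TAGGTCA and the TCF/LEF core CTTTGA were found in 0 of the 11 windows, against 2.61% and 16% of all windows. The CRE half-site TGACG was found in 3 of the 11, which belong to Per1 and Cry1, against 20.8% of all windows, and no match overlapped an E-box. These matches describe the letters of the windows alone.

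Values are log2 expression as deposited, and differences are between group means on that scale. All 10 clock genes had a mean over the 12 arrays above 4.94, a rough measure of background taken as the level under which 95% of 1194 olfactory and vomeronasal receptor genes lay. Of 9 primed epiblast markers, 9 lay above that measure, among them Otx2 at 9.28, Dnmt3b at 9.97 and Pou3f1 at 8.87. Of 8 naive stem cell markers 4 did, with Zfp42 at 4.59 and Esrrb at 4.43 below it, and of 8 fibroblast markers 4 did, with Thy1 at 7.54 the brightest. In RNA from whole cultures, fewer cells of a type and less RNA per cell cannot be told apart.

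Bhlhe41, the repressor that binds E-boxes, had its highest level with both compounds. It read 5.10, 5.27 and 4.96 on the untreated arrays, 5.29, 5.32 and 4.99 with XAV939, 5.57, 5.91 and 5.65 with CHIR99021, and 6.10, 5.98 and 5.94 with both. The untreated and XAV939 arrays overlapped, all CHIR99021 arrays lay above them, and all arrays with both compounds lay above the CHIR99021 arrays. Group means were 5.11 ± 0.16 (SD, n = 3) untreated, 5.20 ± 0.18 with XAV939, 5.71 ± 0.18 with CHIR99021 and 6.01 ± 0.08 with both. The difference from untreated was 0.60 (SE 0.11) with CHIR99021, 0.09 (SE 0.11) with XAV939 and 0.90 (SE 0.11) with both, and these 3 differences use the same untreated arrays. On the linear scale the last was 1.86-fold. The lowest arrays of the untreated and XAV939 groups, at 4.96 and 4.99, lay close to the background measure of 4.94.

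With XAV939 present, CHIR99021 gave a Bhlhe41 difference of 0.81 (SE 0.11), against 0.60 without it. The interaction of the compounds, which compares these 2 differences, was estimated at 0.20 (SE 0.15). The mean with both compounds lay 0.30 (SE 0.11) above the mean with CHIR99021 alone. Leaving out untreated replicate 3 and XAV939 replicate 2, whose values had the smallest standard deviations of all arrays, turned the difference between XAV939 and untreated from 0.09 to -0.05.

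Bhlhe40, the close relative of Bhlhe41 with the same binding site, was dimmer over all arrays and was also higher with CHIR99021. Unlike Bhlhe41 it was no higher with both compounds, at a mean of 5.34, than with CHIR99021 alone, at 5.39. It read 5.11, 5.11 and 5.02 untreated, 5.11, 4.85 and 5.13 with XAV939, 5.35, 5.24 and 5.56 with CHIR99021, and 5.36, 5.17 and 5.50 with both. The arrays without CHIR99021 lay close to the background measure of 4.94, and XAV939 replicate 2, at 4.85, lay below it. All 6 arrays with CHIR99021 lay above all 6 without it. Over these 6 against 6 arrays Bhlhe40 rose by 0.31 (SE 0.07; limma adjusted p = 0.0446), with the same difference of 0.31 (SE 0.10) for CHIR99021 against untreated and for both against XAV939 alone. Neither of these comparisons of 3 against 3 passed (limma adjusted p = 0.282 and 0.318).

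The call of Bhlhe40 rested on all arrays together. Leaving out any 1 of 9 of the 12 arrays ended it, with limma adjusted p between 0.061 and 0.111, and the difference stayed between 0.26 and 0.35 whichever array was left out. Within an array, the standard deviation over probes ran from 2.135 to 2.194 on the 6 arrays without CHIR99021 and from 2.161 to 2.211 on the 6 with it. With that measure as a covariate the Bhlhe40 difference was 0.22 (limma adjusted p = 0.2), and its part in the result was not tested further. Without untreated replicate 3 and XAV939 replicate 2 together it was 0.25 (limma adjusted p = 0.198).

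**Figure D1:**
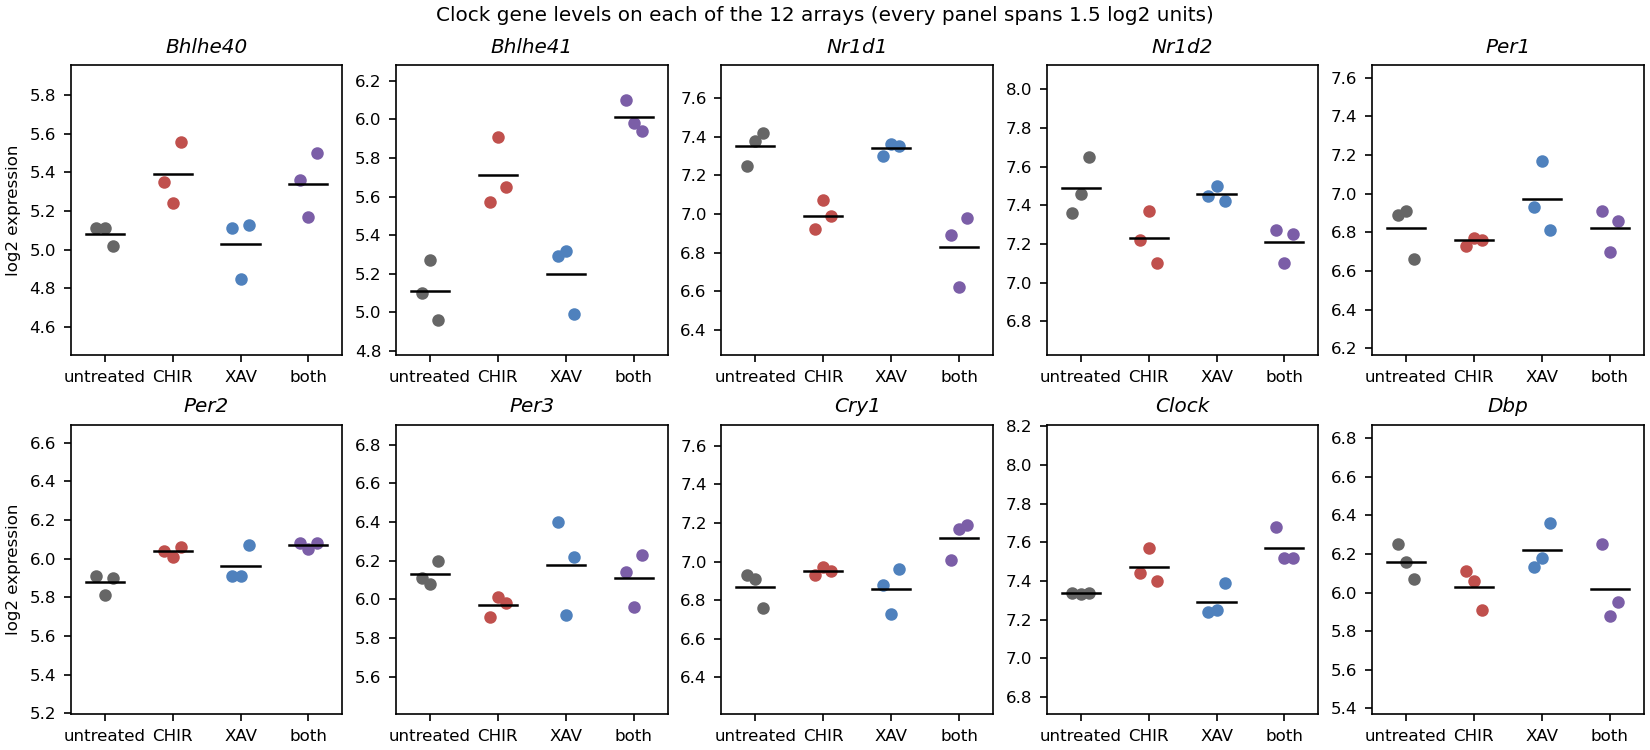
Deposited log2 expression (y axis) of the 10 clock genes in the 4 groups (x axis); each point is an array, 3 per group, and the line is the group mean. Panels differ in their level but span the same 1.5 log2 units; Bhlhe41 climbs from 5.11 untreated to 6.01 with both compounds while Nr1d1 goes from 7.35 to 6.83.

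The REV-ERB genes had lower values with CHIR99021. Nr1d1 read 7.25, 7.38 and 7.42 untreated, 7.30, 7.36 and 7.35 with XAV939, 6.92, 7.07 and 6.99 with CHIR99021, and 6.89, 6.62 and 6.98 with both. The 6 arrays with CHIR99021 all lay below the 6 without it, and the XAV939 arrays overlapped the untreated ones. The difference was -0.36 (SE 0.09) for CHIR99021 against untreated and -0.51 (SE 0.09) for both against XAV939 alone, which share no array. Both compounds against untreated gave -0.52 (SE 0.09). The interaction of the compounds was estimated at -0.14 (SE 0.13).

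Nr1d1 overlaps Thra, the thyroid hormone receptor alpha gene, in the RefSeq annotation, and whether each probe reads the transcripts of its own gene alone was not tested. The mean level of Thra (± SD, n = 3) was 7.19 ± 0.07 in untreated cells and 7.23 ± 0.10 with XAV939, and 6.90 ± 0.09 with CHIR99021 alone but 7.13 ± 0.07 when XAV939 was added. Its difference was -0.29 (SE 0.08; limma adjusted p = 0.147) with CHIR99021 alone and -0.10 (SE 0.08; limma adjusted p = 0.723) with CHIR99021 in the presence of XAV939, where Nr1d1 had -0.51. The level of Thra with both compounds thus lay near that of untreated cells, unlike that of Nr1d1. Among the other members, Dbp overlaps Sphk2, Per3 overlaps Uts2 and Clock overlaps Gm7467, all measured here, with the same limit. Bhlhe40 overlaps 0610040F04Rik, Per2 overlaps Gm35591 and Clock also overlaps Ube2n-ps1, none of them measured here.

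Nr1d2, the other REV-ERB gene, read 7.36, 7.46 and 7.65 untreated, 7.45, 7.50 and 7.42 with XAV939, 7.22, 7.37 and 7.10 with CHIR99021, and 7.27, 7.10 and 7.25 with both. CHIR99021 replicate 2, at 7.37, overlapped the lowest untreated array, at 7.36, and all arrays with both compounds lay below every XAV939 array. Over 6 against 6 arrays the difference was -0.26 (SE 0.06), which missed the threshold (limma adjusted p = 0.0589). It passed in 7 alternatives, with limma adjusted p from 0.0342 to 0.0487, and with array standard deviation as a covariate it was -0.20 (limma adjusted p = 0.232). The differences without and with XAV939 were -0.26 and -0.25 (limma adjusted p = 0.296 and 0.377).

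Clock, the activator that pairs with the product of Arntl, had a small positive difference. It read 7.34, 7.33 and 7.34 untreated, 7.24, 7.25 and 7.39 with XAV939, 7.44, 7.57 and 7.40 with CHIR99021, and 7.68, 7.52 and 7.52 with both. All 6 arrays with CHIR99021 lay above the 6 without it, the closest pair being 7.40 and 7.39. The difference was 0.21 (SE 0.05; limma adjusted p = 0.0707) over 6 against 6 arrays, and it passed with genes dimmer than the median left out (limma adjusted p = 0.0351). It was 0.13 (SE 0.08; limma adjusted p = 0.586) without XAV939 and 0.28 (SE 0.08; limma adjusted p = 0.193) with it.

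Of the repressors of the CLOCK pair, Cry1 and Per2 had small positive differences and Per1 and Per3 negative ones, none of which passed. Cry1 read 6.93, 6.91 and 6.76 untreated, 6.88, 6.73 and 6.96 with XAV939, 6.93, 6.97 and 6.95 with CHIR99021, and 7.01, 7.17 and 7.19 with both. The arrays with both compounds lay above the arrays of every other group, and the other 3 groups overlapped or touched. The Cry1 difference was 0.08 (SE 0.08) for CHIR99021 against untreated, 0.26 (SE 0.08) for both against XAV939 and 0.17 (SE 0.06) over 6 against 6 arrays (limma adjusted p = 0.799, 0.263 and 0.164). For both compounds against untreated it was 0.25, with an interval from 0.08 to 0.42 (limma adjusted p = 0.114).

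Per2 spread little within groups. It read 5.91, 5.81 and 5.90 untreated, 5.91, 5.91 and 6.07 with XAV939, 6.04, 6.01 and 6.06 with CHIR99021, and 6.08, 6.05 and 6.08 with both. XAV939 replicate 3 stood with the CHIR99021 arrays, and the other arrays without CHIR99021 lay below them. The 6 against 6 difference was 0.13 (SE 0.05; limma adjusted p = 0.211).

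Per1, an early-response gene of the clock, lay between 6.66 and 7.17 on all 12 arrays. The arrays of each treated group overlapped the untreated ones, while the CHIR99021 arrays, at 6.77 or less, lay below the XAV939 arrays, at 6.81 or more. Its group means were 6.82 in untreated cells, 6.97 with XAV939, 6.76 with CHIR99021 and 6.82 with both. The CHIR99021 difference over 6 against 6 arrays was -0.11, with an interval from -0.25 to 0.04 (limma adjusted p = 0.512). Per3 ranged from 5.91 to 6.40, with the CHIR99021 arrays, at 5.91, 6.01 and 5.98, below all 3 untreated ones, at 6.11, 6.08 and 6.20. Its 6 against 6 difference was -0.11, with an interval from -0.27 to 0.04 (limma adjusted p = 0.522), and XAV939 replicate 2, at 5.92, overlapped the CHIR99021 arrays.

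Dbp, the D-box activator of the output genes, read 6.25, 6.16 and 6.07 untreated, 6.13, 6.18 and 6.36 with XAV939, 6.11, 6.06 and 5.91 with CHIR99021, and 6.25, 5.88 and 5.95 with both. All 3 treated groups overlapped the untreated arrays, and replicate 1 of both compounds, at 6.25, matched the highest of these. The CHIR99021 arrays, at 6.11 or less, lay below the XAV939 arrays, at 6.13 or more. The 6 against 6 difference was -0.17, with an interval from -0.31 to -0.02 (limma adjusted p = 0.295).

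**Figure D2:**
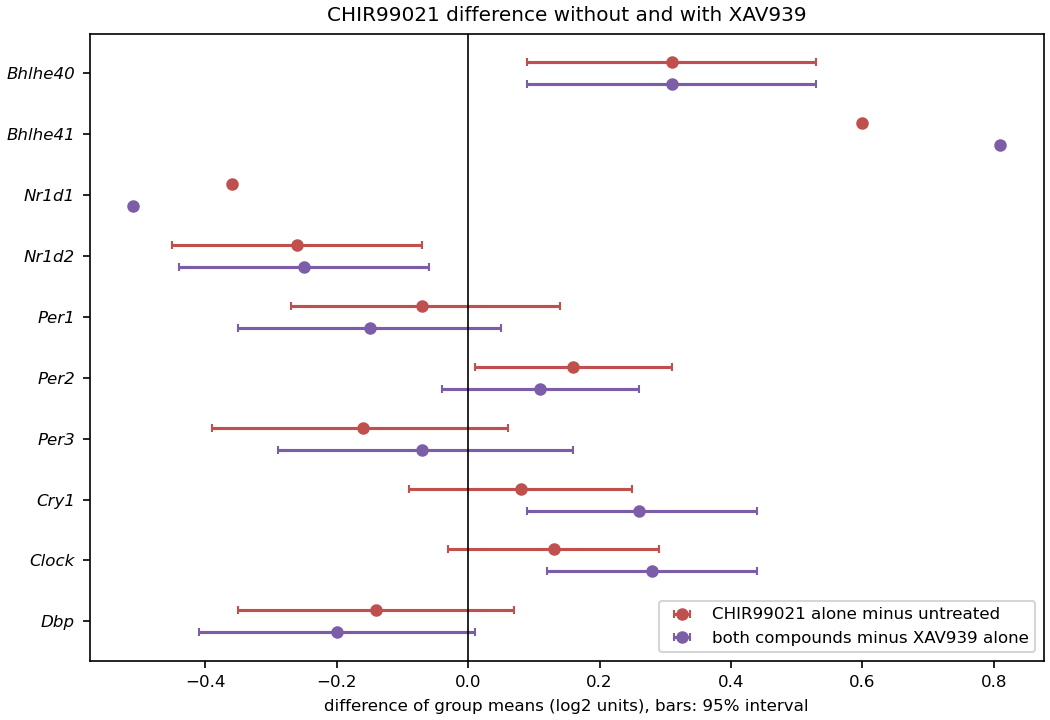
Difference in log2 expression (x axis) of each clock gene (y axis) for CHIR99021 alone against untreated (red) and for both compounds against XAV939 alone (purple); points are differences of means of 3 arrays and bars are 95% intervals from the limma fit, not drawn for Bhlhe41 and Nr1d1, which were selected on their values. Every gene has its 2 points on the same side of 0, and the widest gap from 0 is that of Bhlhe41, at 0.60 and 0.81.

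The 2 comparisons that isolate CHIR99021, without and with XAV939, share no array. The 8 members other than Bhlhe41 and Nr1d1 all had the same sign in both, as had 58.8% of all 19938 genes. The interaction of the 2 compounds passed for none of these 8 in limma (0 at an unadjusted p under 0.05, against 4.94% of all genes), with estimates between -0.08 and 0.18 and adjusted p between 0.965 and 0.999. The threshold for a call was a limma adjusted p under 0.05 over all genes. For CHIR99021 over 6 against 6 arrays, 1.59% of all genes were called, 0.777% higher and 0.818% lower. Of the 8 members other than Bhlhe41 and Nr1d1, 1 was called, Bhlhe40. Bhlhe41 and Nr1d1 were also among the genes called, with differences of 0.70 (SE 0.08) and -0.43 (SE 0.06), a description from which nothing is read. At an unadjusted p under 0.05 stood 6 of the other 8 members and 14% of all genes. The members were chosen with earlier results of these data known, so this count and that of shared signs are descriptions.

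Counted by arrays that do not overlap, and among the 8 members other than Bhlhe41 and Nr1d1, Bhlhe40 and Clock had all 6 CHIR99021 arrays above the 6 others, which held for 0.782% of all genes. None of these 8 had all 6 below, which held for 0.848%. In the comparisons of 3 against 3, where this is frequent over all genes, CHIR99021 against untreated had Bhlhe40, Per2 and Clock wholly above (8.09% of all genes) and Per3 wholly below (8.25%). Both compounds against XAV939 had Bhlhe40, Cry1 and Clock above (6.94%) and Nr1d2 below (7.32%). Both against untreated had Bhlhe40, Per2, Cry1 and Clock above (13.0%) and Nr1d2 below (12.0%).

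In the comparisons of 3 against 3, limma called 0 of the 8 members. At an unadjusted p under 0.05 stood Bhlhe40, Nr1d2 and Per2 for CHIR99021 against untreated, beside 10.3% of all genes. Bhlhe40, Nr1d2, Cry1 and Clock did so for both compounds against XAV939, beside 9.69% of all genes. These 4 with Per2 did so for both against untreated, beside 18.7% of all genes. Of all genes 0.421%, 0.236% and 1.13% were called in these comparisons. Bhlhe41 was among the genes called in all 3 and Nr1d1 in the last 2, which their selection on the same arrays favours, so nothing is read from it.

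Of 8 naive stem cell markers 2 were called with CHIR99021 over 6 against 6 arrays, where 1.59% of all genes were called. At an unadjusted limma p under 0.05 stood 6 of the 8, against 14% of all genes. The mean of the 8 log2 values ran from 4.86 to 4.91 on the untreated arrays, from 4.81 to 4.98 with XAV939, from 4.96 to 5.09 with CHIR99021 and from 4.92 to 5.02 with both. Over 6 against 6 arrays Tbx3 rose by 0.40 (SE 0.08; limma adjusted p = 0.013) and Klf2 by 0.21 (SE 0.05; limma adjusted p = 0.038), while Nr0b1 had -0.17, Esrrb -0.15 and Zfp42 -0.06 (limma adjusted p = 0.268, 0.305 and 0.882), all 3 below the background measure. Tfcp2l1, above that measure and not called, averaged 6.11 untreated, 6.29 with XAV939, 6.39 with CHIR99021 and 6.38 with both. Klf4, also above it with a mean of 4.97 over all arrays and not called, averaged 4.82 untreated, 4.91 with XAV939, 5.05 with CHIR99021 and 5.08 with both. The untreated and XAV939 means of Klf4 lay below the measure of 4.94, as did those of the called Tbx3, at 4.93 and 4.77. With array standard deviation as a covariate the Tbx3 call ended (0.39, limma adjusted p = 0.06). The Klf2 call ended when any 1 of 11 arrays was left out. For 9 primed markers the ranges were 9.48 to 9.54 untreated and 9.53 to 9.56 with CHIR99021, and for 8 fibroblast markers 5.16 to 5.23 and 5.09 to 5.14, with no member of either list called. The part of these markers in the clock gene results was not tested.

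XAV939 alone gave no call among the clock genes. For XAV939 against untreated, limma called 0 of 19938 genes, and of the 8 members other than Bhlhe41 and Nr1d1, 0 stood at an unadjusted p under 0.05 against 11.2% of all genes. Their differences ran from -0.05 to 0.15. Over 6 arrays with XAV939 against 6 without, limma called 0.331% of all genes and none of the 8, and 0 of the 8 stood at an unadjusted p under 0.05, against 16.9% of all genes. Their differences there ran from -0.05 for Bhlhe40 to 0.11 for Per1, with adjusted p between 0.433 and 0.867, and Bhlhe41 had 0.19 (SE 0.08) and Nr1d1 -0.09 (SE 0.06). For both compounds against CHIR99021 alone, limma called 0.0251% of all genes and none of the 8, and 1 of the 8, Cry1, stood at an unadjusted p under 0.05 against 11% of all genes. None of the 10 members had arrays that did not overlap for XAV939 against untreated (9.48% of all genes higher, 8.17% lower) or over 6 against 6 arrays (1.01% and 0.517%). Both compounds against CHIR99021 had Cry1 wholly above (8.92% of all genes), beside the selected Bhlhe41, and no member below (7.18%).

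**Figure D3:**
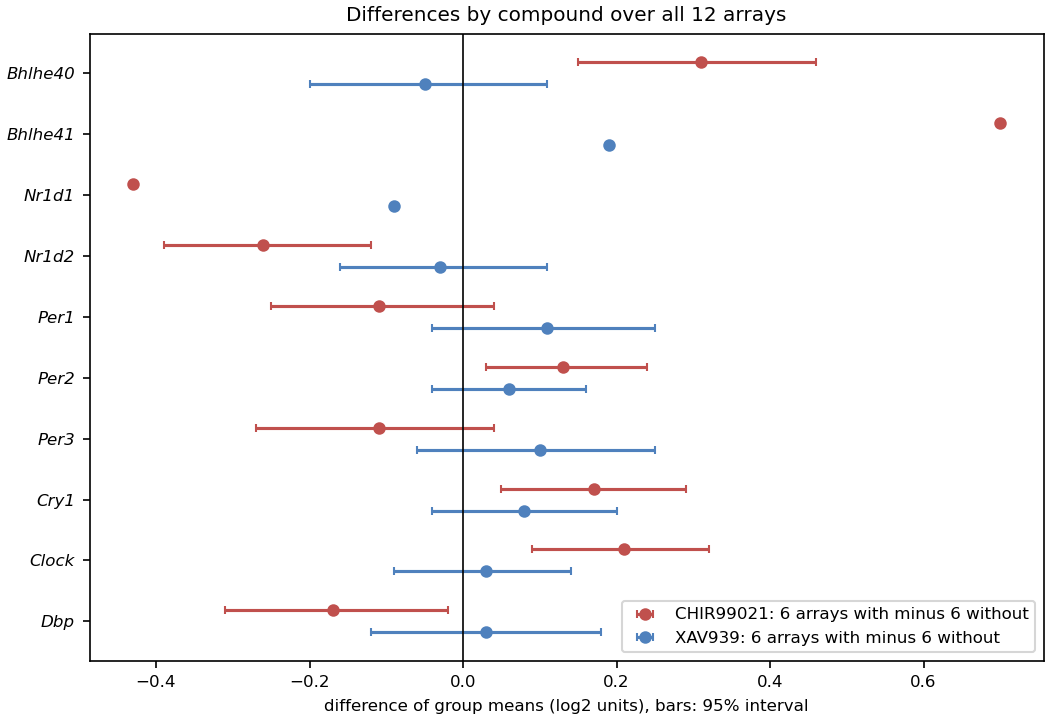
Difference in log2 expression (x axis) of each clock gene (y axis) over 6 arrays with a compound against 6 without it, for CHIR99021 (red) and XAV939 (blue), with 95% intervals from the limma fit for all but the selected genes Bhlhe41 and Nr1d1. CHIR99021 estimates run from -0.43 for Nr1d1 to 0.70 for Bhlhe41, and XAV939 estimates from -0.09 to 0.19.

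None of the partners of these genes in the loop passed. Of 9 listed partners 7 were measured, and limma called 0 of them in each of the 8 comparisons; over 6 against 6 arrays, 0 stood at an unadjusted p under 0.05 for CHIR99021 and 2 for XAV939, beside 14% and 16.9% of all genes. Arntl, the partner of CLOCK and the gene that REV-ERB proteins repress, averaged 7.06 ± 0.04 (SD, n = 3) untreated. It averaged 7.13 ± 0.04 with XAV939, 7.13 ± 0.07 with CHIR99021 and 7.15 ± 0.04 with both. Its CHIR99021 difference over 6 against 6 arrays was 0.05 (SE 0.05, limma adjusted p = 0.731). Cry2 had a difference of 0.12 (SE 0.08; limma adjusted p = 0.531) with CHIR99021 and 0.26 (SE 0.08; limma adjusted p = 0.128) with XAV939. Ciart, another repressor of the CLOCK pair, and Timeless had 0.11 with CHIR99021 and 0.19 with XAV939 respectively (limma adjusted p = 0.596 and 0.289). Rora (mean 4.89), Arntl2 (4.86) and Rorb (4.48) lay below the background measure, and Rora had 0.14 with CHIR99021 and Arntl2 -0.12 with XAV939 (limma adjusted p = 0.371 and 0.437). The list's median CHIR99021 difference over 6 against 6 arrays was 0.06, beside -0.005 for all genes.

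Of 17 measured kinases, ubiquitin ligases and other modifiers of clock proteins, limma called 0, with 5 at an unadjusted p under 0.05 for CHIR99021 and 4 for XAV939 over 6 against 6 arrays, where 14% and 16.9% of all genes stood. The smallest p for CHIR99021 were those of Usp2, a deubiquitinase (-0.19, limma adjusted p = 0.0774), Prkaa1, a catalytic subunit of AMP-activated kinase (0.18, limma adjusted p = 0.0911), and Siah2, a ubiquitin ligase (0.19, limma adjusted p = 0.153). For XAV939 they were those of Huwe1 (0.19, limma adjusted p = 0.107), Usp2 (0.14, limma adjusted p = 0.18) and Gsk3b, which encodes a target of CHIR99021 (0.11, limma adjusted p = 0.255).

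Among 12 measured output genes and D-box factors, 1 was called, Klf10, which encodes a zinc-finger repressor. Of all genes 1.59% were called for CHIR99021 over 6 against 6 arrays and 1.13% for both against untreated. At an unadjusted limma p under 0.05 over 6 against 6 arrays stood 2 of the 12 for CHIR99021 and 4 for XAV939. The shares of all genes there were 14% and 16.9%. Klf10 read 8.92, 8.89 and 8.77 untreated, 8.92, 9.36 and 9.13 with XAV939, 9.44, 9.36 and 9.28 with CHIR99021, and 9.41, 9.65 and 9.30 with both. All CHIR99021 arrays lay above the untreated ones, while XAV939 replicate 2, at 9.36, reached their level. Klf10 rose by 0.41 (SE 0.08, limma adjusted p = 0.0103) with CHIR99021 over 6 against 6 arrays. Without and with XAV939, CHIR99021 gave Klf10 differences of 0.50 and 0.32, which did not pass (limma adjusted p = 0.0577 and 0.33). Klf10 had 0.28 for XAV939 against untreated and 0.19 over 6 against 6 XAV939 arrays (limma adjusted p = 0.364 and 0.23). It also rose by 0.59 (SE 0.11; limma adjusted p = 0.0197) with both compounds against untreated, a call that ended without untreated replicate 2 or 3 or replicate 2 of both compounds (limma adjusted p = 0.0642, 0.104 and 0.0911), and with array standard deviation as a covariate (0.0564). Hlf, a D-box activator like Dbp, had 0.18 with CHIR99021 (limma adjusted p = 0.12), and Nfil3, the D-box repressor, 0.26 with XAV939 (limma adjusted p = 0.0843). Tsc22d3 had 0.18 with CHIR99021 and 0.26 with XAV939 (limma adjusted p = 0.358 and 0.142).

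Genes induced by hypoxia, and genes induced by serum, cAMP or glucocorticoids, were also listed. Whether any of these inducers had a part in the levels of Bhlhe40, Bhlhe41 or Per1 was not tested. Both Bhlhe genes are induced by hypoxia, and of 20 measured hypoxia-induced genes limma called 0 in each comparison. Over 6 against 6 arrays 2 stood at an unadjusted p under 0.05 for CHIR99021 and 6 for XAV939, beside 14% and 16.9% of all genes, with a median CHIR99021 difference of 0.02. Ero1a (0.11), Pfkfb4 (0.15) and Pfkfb3 (0.10) had the smallest p for CHIR99021, and Egln3 (-0.24), Vegfa (0.24) and Ndrg1 (0.19) for XAV939, with limma adjusted p between 0.11 and 0.499. Pfkfb4, at a mean of 4.77, lay below the background measure.

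Of 15 genes induced by serum, cAMP or glucocorticoids, as Per1 is, 1 was called over 6 against 6 arrays. It was called for CHIR99021, where 1.59% of all genes were called. At an unadjusted limma p under 0.05 stood 2 of the 15 for CHIR99021 and 4 for XAV939, beside 14% and 16.9% of all genes. Dusp1, an early-response phosphatase of MAP kinases, fell by 0.36 (SE 0.07; limma adjusted p = 0.0179) with CHIR99021. It read 9.11, 9.07 and 9.22 untreated, 9.28, 9.37 and 9.09 with XAV939, 8.89, 8.78 and 8.64 with CHIR99021, and 8.81, 8.74 and 9.11 with both. Replicate 2 of both compounds and the third replicates of the untreated and CHIR99021 groups were each needed for this call (limma adjusted p = 0.0547, 0.052 and 0.0517 without them), as was a fit with no array covariate (0.101 with it). Cebpb had 0.18 with CHIR99021 and 0.26 with XAV939 (limma adjusted p = 0.296 and 0.117), and Nr4a1, with a mean of 4.89 below the background measure, had -0.12 with CHIR99021. Ier2 had 0.19 and Zbtb16 -0.14 with XAV939 (limma adjusted p = 0.23 and 0.265).

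The genes whose pattern was nearest to that of Bhlhe41 were found by the root mean square difference over the 12 arrays between values centred on each gene's own mean, among 11593 other genes above the background measure. The nearest was Fnip1, which encodes a partner of folliculin, at 0.182, followed by Zfp263 (0.196), Znrf3 (0.204), a Wnt target that removes Frizzled receptors, Ubn1 (0.208), a histone chaperone subunit, and Dact1 (0.21), which encodes a Dishevelled-binding protein. A gene with no variation would have had 0.39, and the median of all candidates was 0.392. The mean level of Fnip1 (± SD, n = 3) was 7.97 ± 0.03 in untreated cells, 7.97 ± 0.10 with XAV939, 8.44 ± 0.02 with CHIR99021 and 8.57 ± 0.15 with both. Like Bhlhe41 it was highest with both compounds, whereas Dact1 was higher with CHIR99021 alone, at 5.49 ± 0.21, than with both, at 5.32 ± 0.06. A pattern shared with Bhlhe41 follows from the choice by likeness on the same arrays.

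For Nr1d1 the nearest genes were Bmf (0.105), which encodes a pro-apoptotic protein of the BCL2 family, Klhl24 (0.105), Spsb2 (0.105), the transcription factor gene Sox4 (0.106) and Plet1 (0.108), where a gene with no variation had 0.242. Sox4 averaged 6.78 ± 0.10 (SD, n = 3) untreated, 6.78 ± 0.05 with XAV939, 6.41 ± 0.16 with CHIR99021 and 6.19 ± 0.13 with both, and so shared the lower level with both compounds. Klhl24 averaged 9.72 ± 0.06 untreated, 9.61 ± 0.05 with XAV939, 9.28 ± 0.08 with CHIR99021 and 9.25 ± 0.10 with both. Patterns shared with Nr1d1 likewise follow from the choice by likeness. None of the 10 nearest genes was a clock gene of the lists above.

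**Figure D4:**
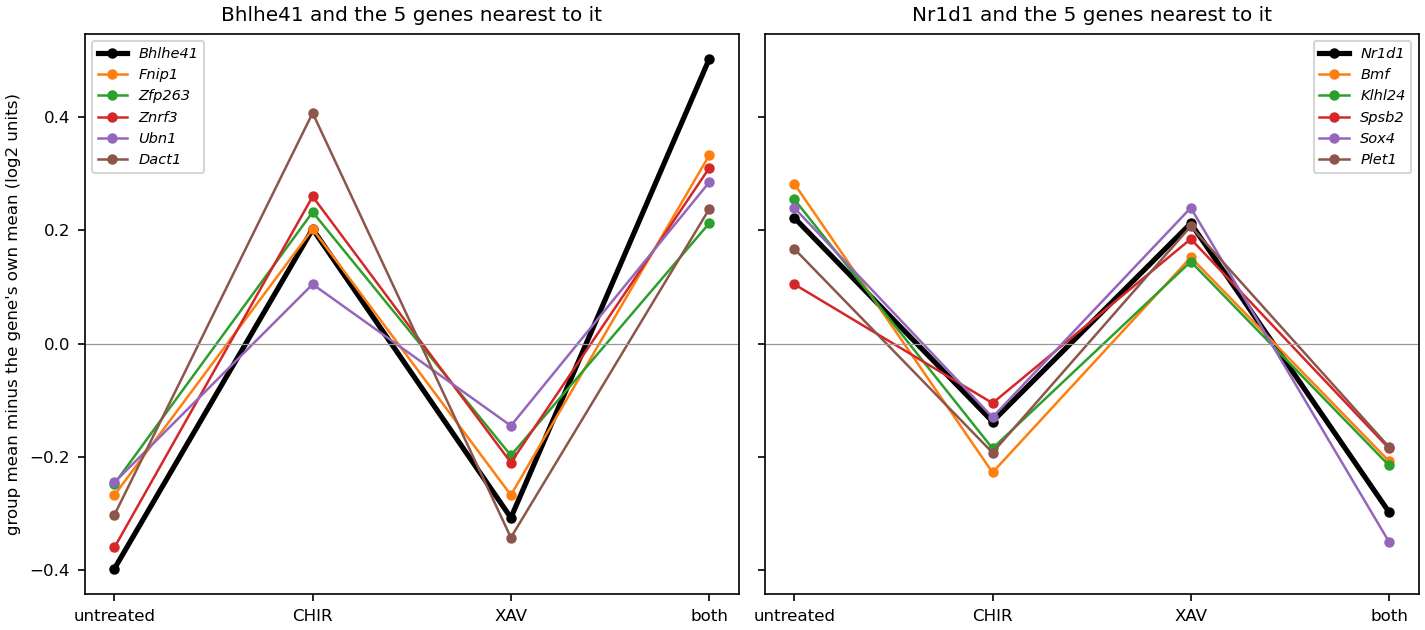
Group means minus each gene's own mean over the 4 groups (y axis, log2 units) for Bhlhe41 (left, black) and Nr1d1 (right, black) with the 5 genes nearest to each (colours), in untreated cells and with CHIR99021, XAV939 and both compounds (x axis). The genes near Bhlhe41 are high in both groups with CHIR99021 and those near Nr1d1 low, which follows from their choice by likeness on these arrays. Bhlhe41 has a wider range than Nr1d1, 0.90 between its lowest and highest mean.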

How the data were processed

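Affymetrix arrays of 1 colour were hybridised with biotin-labelled total RNA, 1 sample per array, per the labels' protocols. The table the authors deposited was read as log2 expression per probe, since it ranged from 2.52 to 14.28; the file gives no scale. Per the submitters' processing notes Partek was used, with no version given, and the normalization is not given in the sources used here. Arrays carry no read depth, and 3 arrays per group limit the precision.

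Of 35399 probes 21789 had 1 gene symbol in the platform annotation, updated through RefSeq gene IDs (GRCm38.p6). The probe with the highest mean stood for each of 19938 genes. Group means of all 12 arrays were fitted with limma 3.58.1 in R 4.3.3 (lmFit and eBayes, two-sided, Benjamini-Hochberg over all genes within a comparison, threshold 0.05), with no further normalization. The fit was tested on simulated data. There were 8 comparisons: each treatment against untreated, both against each compound alone, the interaction, and 6 against 6 arrays for each compound. Members and gene lists were chosen with earlier results of these data known. Text names the members, list genes called or with the 3 smallest p for each compound, Thra, and the 5 genes nearest to Bhlhe41 and to Nr1d1. Klf2 and Tbx3 are named as the called markers, and Nr0b1, Esrrb, Zfp42, Tfcp2l1 and Klf4 were named after their values were seen. Same-numbered replicates did not deviate together (correlations from -0.247 to 0.201 over 18 pairs). Figures were drawn with matplotlib 3.10.9.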

Additional observations from a re-analysis of the deposited data

How the results depend on the processing

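The number of clock genes called over 6 against 6 arrays with CHIR99021, 3, was kept in 8 of 25 alternative fits, and was 4 in 6, 2 in 10 and 0 in 1. It was kept in 20 of 26 for CHIR99021 against untreated and 20 of 26 for both against untreated. For both against XAV939 it was kept in 17 of 26. The first count holds the selected Bhlhe41 and Nr1d1 beside Bhlhe40, and the other 3 hold no member but these selected genes. The alternatives were quantile, median and cyclic loess normalization, filters on dim genes, other probe rules, fits to the compared groups alone, eBayes trend and robust options, weighted arrays, a replicate block, array standard deviation as a covariate, a fold threshold of 1.5 and leaving out arrays. The fold threshold tested whether a difference exceeded 1.5-fold, not whether its estimate did. Bhlhe41 had estimates from 1.52-fold to 1.86-fold in the comparisons where it was called. In that test none of the 10 members was called in any comparison. The main fit called 1 for CHIR99021 against untreated and 2 for both against untreated, beside 0.421% and 1.13% of all genes. It called 2 for both against XAV939 and 3 for CHIR99021 over 6 against 6 arrays, beside 0.236% and 1.59%. Leaving out single arrays gave 0 to 1, 1 to 2, 1 to 2 and 2 to 4 in these comparisons, in that order. The array covariate left 1 member, Bhlhe41, for both against untreated and for both against XAV939, and so did the fit to the compared groups for the latter. The cause was not tested. Untreated replicate 3 and XAV939 replicate 2, left out together after seeing the data, gave 0, 1 and 1 in the first 3. The replicate block gave 1, 2, 2 and 3, and changed no call of a member; same-numbered samples share only a number, and 4 of 12 arrays deviated most like an array of their own number in another group. It moved the count over all genes from 66 to 3 for XAV939 over 6 against 6 arrays and from 5 to 1 for both against CHIR99021, and it ended the call of Klf2 (limma adjusted p = 0.0542). Small differences that had not passed changed sign: with XAV939 over 6 against 6 arrays, Nr1d2 was at 0.01402 with the array covariate and 0.0015 without the 2 arrays left out together, Clock at -0.01333 with quantile normalization and -0.01922 with cyclic loess, and Dbp at -0.00036 with cyclic loess; without single arrays Nr1d2 ran from -0.06137 to 0.01212, Dbp from -0.02713 to 0.06487 and Per3 (both against XAV939) from -0.20 to 0.04485. Bhlhe41 (XAV939 against untreated) was at -0.04666 without those 2 arrays. Bhlhe40 and Bhlhe41 lie close to the background measure, which limits their differences, and Bhlhe40 was not tested with genes below the median left out.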
